A study of Mus musculus with 3 samples.

Results

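MyoFB-IMR is the deposited name of a type of lung myofibroblast, and its cells were compared here between the sort gate that carries the Fgf18 lineage label and the gate that does not. The members were all cells that the deposited annotation calls MyoFB-IMR in these gates: 467 cells sorted as GFP-high tdT-high and 1032 cells sorted as GFP-high tdT-negative, which is 1499 of the 6142 cells of the series. A further 21 MyoFB-IMR cells lay in the GFP-low tdT-negative library and were not analysed here. In MyoFB-IMR cells with the label, 6 of 17 elastic fibre genes and 4 of 22 collagen genes stood at least 1.5-fold higher, Eln at 2.01-fold, as did Aspn, Kctd16, Cdh4, Cacna2d3, Igfbp5 and Lgr6. Over all 11936 genes measured by the same rule, 3.03% stood that much higher and 1.37% that much lower. Hs6st3, Slc9a9, Tafa1 and Stc1 stood lower, none of them by as much as 2-fold. Summed over all cells, 23 of 25 contractile genes lay within 1.5-fold.

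The cells came from lungs of mouse pups of genotype Fgf18CreERT2/+; ROSATDTomato/+; PdgfrαEGFP/+, injected with tamoxifen from day 2 to day 5 after birth and taken at day 7. Both gates share all 3 alleles and the tamoxifen, so the unlabelled cells are no wild type. The CreERT2 recombinase is made where the Fgf18 locus is active and can act only while tamoxifen is present. As a lineage label, tdT-high marks cells in which, or in whose ancestors, the recombinase had acted by day 7. A tdT-negative cell may still express Fgf18. The green reporter sits at the Pdgfra locus, and cells had been sorted live on both colours. Each gate gave 1 droplet library, and the labels do not state how many pups went into it. With 1 library a side there is no replicate and no test: the intervals below are exact 95% intervals of the counts, cover counting error only and say nothing about the spread between pups or sorts.

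Alveolar myofibroblasts arise from Pdgfra-expressing mesenchyme and line the entrances and septal tips of the alveoli as these form after birth. They contract and lay down elastin, which is cross-linked by lysyl oxidases on a scaffold of fibrillins, and hedgehog, PDGF, Wnt and TGF-beta signals act on them. FGF18 is a secreted fibroblast growth factor of the lung mesenchyme that in mice is active in the period when alveoli form.

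Promoters of 3 genes are shown for the genes the comparison turns on: Fgf18, whose locus drives the label, Aspn, which had the highest ratio among genes of at least 50 CPM other than the reporter locus, and Hs6st3, which had the lowest among genes of at least 50 CPM. Each window runs from 250 bases before to 50 bases after the annotated start, 5′ to 3′ on the gene's own strand, from RefSeq on GRCm38.p6, and 117 of the 171 genes with values in the tables had an entry. The windows are chr11:33147351-33147650 (minus strand) for Fgf18, chr13:49544193-49544492 (plus strand) for Aspn and chr14:119138015-119138314 (plus strand) for Hs6st3. Gene coordinates given elsewhere are from another annotation, GENCODE, in which Hs6st3 starts past the end of its window. Capitals mark every match on either strand to TATAAA, to the core GGAATG that TEAD factors bind, to the GLI site GACCACCCA, or to the CArG box of serum response factor, in which a TATAAA may lie.
Fgf18: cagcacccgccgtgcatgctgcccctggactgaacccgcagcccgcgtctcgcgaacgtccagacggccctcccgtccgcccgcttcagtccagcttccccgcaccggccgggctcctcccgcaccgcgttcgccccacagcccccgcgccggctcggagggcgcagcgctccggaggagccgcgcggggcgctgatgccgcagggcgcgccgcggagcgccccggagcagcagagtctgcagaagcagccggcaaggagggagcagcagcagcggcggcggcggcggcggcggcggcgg
Aspn: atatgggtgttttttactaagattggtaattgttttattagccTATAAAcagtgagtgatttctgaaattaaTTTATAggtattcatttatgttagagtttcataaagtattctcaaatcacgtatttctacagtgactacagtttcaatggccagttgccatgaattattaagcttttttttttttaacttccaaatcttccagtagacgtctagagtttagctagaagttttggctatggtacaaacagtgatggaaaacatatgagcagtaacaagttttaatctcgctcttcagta
Hs6st3: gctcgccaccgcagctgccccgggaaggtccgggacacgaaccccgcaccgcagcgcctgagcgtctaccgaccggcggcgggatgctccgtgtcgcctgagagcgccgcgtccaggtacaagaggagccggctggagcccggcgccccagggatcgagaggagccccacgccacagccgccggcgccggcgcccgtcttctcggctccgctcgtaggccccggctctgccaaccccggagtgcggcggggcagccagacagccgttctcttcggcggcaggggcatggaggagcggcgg
Aspn holds TATAAA at bases 44 to 49 on the plus strand and at bases 73 to 78 on the minus strand of its window, and the windows of Fgf18 and Hs6st3 hold none of the 4 motifs. The leftmost bases of the Aspn matches lie at -207 and -178 relative to the annotated start. Among all 32851 promoters of the same length, TATAAA was found in 13.6%, GGAATG in 14.7%, GACCACCCA in 0.253% and the CArG box in 1.63%.

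The tdT-high cells gave 10948878 UMIs in all and 23762 in the median cell, and the tdT-negative cells 20382777 in all and 19460.5 in the median cell. Structural RNA and the genes that draw its reads, which differ between these libraries in every type, were set aside. They took 5.42% of the UMIs in tdT-high and 2.94% in tdT-negative cells, most of it Rn18s-rs5 at 4.59% and 2.57%. Ribosomal protein genes took 9.05% in tdT-high and 10.2% in tdT-negative cells, and the median mitochondrial share was 3.46% and 2.80% in the same order. The share of cells with UMIs of Y-linked genes and none of Xist was 64.9% in tdT-high and 63.5% in tdT-negative cells. The MyoFB-IMR cells of both libraries thus came from male and female pups in a similar ratio. In the same order this share was 66.7% and 64.05% in MyoFB-Int, and 50.5% and 60.1% in MyoFB-Ter. Across the libraries of the series 4 cell barcodes were used more than once. How far depth, structural RNA or the make-up of the pups moved single genes was not tested beyond the alternatives in the closing section.

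The cells carried the markers of alveolar myofibroblasts. All 14 genes of that list reached 5 CPM (counts per 1e6 UMIs of the library's MyoFB-IMR cells). Their summed level was 8015 CPM in tdT-high and 8674 CPM in tdT-negative MyoFB-IMR cells, against 1673 CPM in the AdvFB cells of the tdT-negative library. In those AdvFB cells 11 of the 14 still reached 10 CPM, so the sum and not the count sets the types apart. The sums were higher in MyoFB-Int, at 9978 and 10143 CPM, and in MyoFB-Ter, at 16772 and 11697.5 CPM, tdT-high first. Acta2, smooth muscle actin, stood at 839.6 CPM in tdT-high and 1008 CPM in tdT-negative cells. Tgfbi, a matrix protein induced by TGF-beta, stood at 1404 and 1430.3 CPM in the same order.

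The label itself followed the gate. TDT, the tdTomato transcript, stood at 47.0 CPM (95% interval 43.1 to 51.3) in tdT-high and 2.45 CPM (1.82 to 3.23) in tdT-negative cells, a 19.2-fold difference. After every cell was thinned to 5000 UMIs, 16.9% of tdT-high (13.6 to 20.6) and 1.74% of tdT-negative cells (1.04 to 2.74) held a TDT UMI, against 0.305% of the 328 AdvFB cells of the tdT-negative library, whose median cell was deeper at 24677.5 UMIs. Unthinned, the shares were 56.5% in tdT-high and 3.97% in tdT-negative cells. Gt(ROSA)26Sor, the transcript of the locus that holds the reporter (chromosome 6, 113067428 to 113077333, GRCm38), stood at 68.7 CPM in tdT-high and 8.24 CPM in tdT-negative cells. That is an 8.33-fold difference (7.04 to 9.91).

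Fgf18 (chromosome 11, 33117430 to 33147400) was still expressed on both sides of the gate. Its level was 49.5 CPM (45.4 to 53.9) in tdT-high and 35.0 CPM (32.5 to 37.7) in tdT-negative cells, 1.42-fold (1.26 to 1.59). After thinning, 20.1% of tdT-high cells (16.6 to 24.1) and 14.7% of tdT-negative cells (12.6 to 17.04) held an Fgf18 UMI, against 0.915% of AdvFB cells (0.189 to 2.65). Unthinned, these shares were 50.1% and 38.4% in tdT-high and tdT-negative cells. CreERT2 stood at 13.5 and 11.0 CPM in that order, and the interval of its ratio, 0.993 to 1.52, included 1. Pdgfra, the receptor for PDGF-A whose locus drives the green reporter, was lower, at 587 CPM in tdT-high and 699 CPM in tdT-negative cells. H2BGFP, the reporter's own transcript, stood at 255 CPM in tdT-high and 340.2 CPM in tdT-negative cells, 0.750 of the level.

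Few genes differed by much. A gene was counted when, in whichever library it was higher, it reached 50 CPM and was seen in 10% or more of the cells. Of 3960 such genes 11 were at least 2-fold higher in tdT-high cells, which is 0.278% of the genes counted, and 0 were at least 2-fold lower, which is 0%. At 1.5-fold, 57 genes were higher (1.44%) and 24 lower (0.606%), so 97.95% lay within 1.5-fold of each other. The median log2 ratio was -0.07. The 11 genes included Gt(ROSA)26Sor, Aspn, Kctd16, Cdh4, Cacna2d3, Igfbp5, Lgr6, Eln and the unnamed transcripts Gm20631 and Gm19951. Ratios in CPM are given without a pseudocount, while log2 ratios, and the counts of genes past 1.5-fold or 2-fold, use CPM plus 1.

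**Figure D1:**
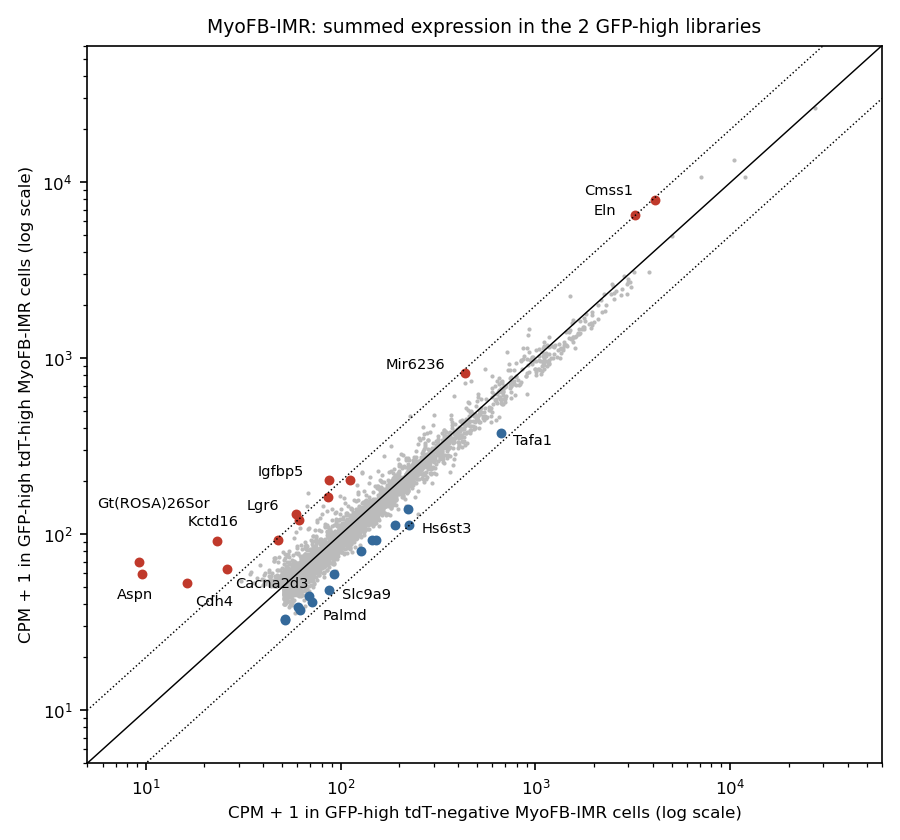
CPM plus 1 of each gene with at least 50 CPM in MyoFB-IMR cells, GFP-high tdT-high on the vertical and GFP-high tdT-negative on the horizontal axis, both on log scales; red points are 14 of the 15 highest and blue points the 15 lowest ratios, the solid line marks equal levels and the dotted lines 2-fold. The grey cloud hugs the solid line, and Aspn, Kctd16 and Cdh4 lie farthest above it beside the reporter locus.

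Several elastic fibre genes stood higher on the labelled side, and 11 of 17 lay within 1.5-fold. Of 17 measured members, counting only genes that reached 5 CPM in one library or the other, 6 were at least 1.5-fold higher in tdT-high cells and 0 lower, with a median log2 ratio of 0.38. Over all 11936 genes at that level, 3.03% were that much higher and 1.37% that much lower, with a median of -0.04. Eln, elastin itself (chromosome 5, 134702593 to 134747323), stood at 6507 CPM (6460 to 6555) in tdT-high and 3239 CPM (3215 to 3264) in tdT-negative cells, 2.01-fold (1.99 to 2.03). The difference ran through the population: the middle cells of the tdT-high library, from the 25th to the 75th percentile, held 2661 to 9189 CPM of Eln with a median of 5267, against 1052 to 4647 CPM with a median of 2256 in the tdT-negative library. Lox, a lysyl oxidase that cross-links elastin and collagen, stood at 41.7 and 21.1 CPM in tdT-high and tdT-negative cells. Its relatives Loxl1, at 135.5 and 84.1 CPM, and Loxl2, at 278 and 166 CPM, were higher in tdT-high cells as well. Mfap4, a microfibril protein, stood at 102 CPM in tdT-high and 58.1 CPM in tdT-negative cells, and Ltbp1, which tethers latent TGF-beta to the matrix, at 20.1 and 10.3 CPM in that order. The scaffold gene Fbn1, fibrillin-1, was near even at 726 CPM in tdT-high and 670.3 CPM in tdT-negative cells.

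Among 22 measured collagen genes 4 were at least 1.5-fold higher in tdT-high cells and 1 lower, and the median log2 ratio was 0.36. Col1a1, a chain of type I collagen, stood at 873 CPM (856 to 891) in tdT-high and 550.1 CPM (540 to 560.3) in tdT-negative cells, 1.59-fold. Col3a1, the chain of type III collagen, stood at 2248 and 1506 CPM in tdT-high and tdT-negative cells, just under 1.5-fold at 1.49 (1.47 to 1.52), and Col1a2 at 1146 and 864 CPM. The other higher members were Col12a1 (44.4 CPM in tdT-high, 19.2 CPM in tdT-negative), Col14a1 (27.9 and 15.7 CPM) and Col15a1 (8.403 and 3.88 CPM). Col12a1, Col14a1 and Col15a1 stood at 17.4%, 23.3% and 21.2% of their whole-library level in tdT-high, and at 21.24%, 5.66% and 10.2% in tdT-negative. Over the whole libraries Col12a1 was higher in tdT-high (255.7 and 90.6 CPM), Col14a1 lower (119.5 and 276.6 CPM) and Col15a1 near even (39.7 and 38.1 CPM). The part of free RNA in their ratios was not tested. Col13a1, a membrane collagen, was the lower one, at 4.20 CPM in tdT-high and 7.02 CPM in tdT-negative cells. Type IV chains of basement membranes differed less, with Col4a1 at 1092 CPM in tdT-high and 926 CPM in tdT-negative cells.

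Of 20 measured matrix proteoglycan and matricellular genes 5 were higher and 2 lower, with a median log2 ratio of 0.39. Aspn, asporin, a small leucine-rich proteoglycan that binds collagen (chromosome 13, 49544443 to 49567565), stood at 58.8 CPM (54.4 to 63.5) in tdT-high and 8.59 CPM (7.36 to 9.96) in tdT-negative cells, 6.85-fold (5.79 to 8.14). Most cells held none of it in either library. Cells with at least 5 Aspn UMIs made up 5.14% of tdT-high cells (24 cells) and 0.291% of tdT-negative cells (3 cells), and the top 23 of the tdT-high cells held 67.4% of that library's Aspn UMIs in MyoFB-IMR. Aspn is far more abundant in other cells of both libraries, at 1727 CPM over the whole tdT-high library and 349 CPM over the whole tdT-negative library, 4.95-fold. Its MyoFB-IMR level was 3.41% of the whole-library level in tdT-high, the lowest of 1737 genes with at least 100 CPM there, and 2.46% in tdT-negative, where Dcn, a marker of AdvFB cells, stood at 1.04%. The part of free RNA, and of cells near the border to other types, in the Aspn difference was not tested.

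Postn, periostin, stood at 43.2 CPM in tdT-high and 20.8 CPM in tdT-negative cells. Thbs1, thrombospondin-1, which can activate latent TGF-beta, stood at 225 and 128 CPM in the same order. Ogn, at 10.9 and 4.32 CPM, and Podn, at 16.5 and 9.81 CPM, are further leucine-rich proteoglycans on the higher side. Ogn stood at only 10.05% of its whole-library level in tdT-high and 1.95% in tdT-negative. Unlike Aspn, it was lower over the whole tdT-high library, at 108.2 CPM against 221 CPM over the tdT-negative library. The part of free RNA in the Ogn ratio was not tested. The lower members were Spon1, a spondin, at 25.03 CPM in tdT-high and 47.4 CPM in tdT-negative cells, and Dcn, decorin, at 3.01 and 7.85 CPM. Dcn stood at 1.035% of its whole-library level in tdT-negative, and the part of free RNA in its ratio was not tested.

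Summed over all MyoFB-IMR cells of each gate, the contractile apparatus did not share in this. Of 25 measured members 2 were higher and 0 lower, and the median log2 ratio of -0.02 was close to that of all genes. Tagln, an actin-binding protein of smooth muscle, stood at 1165 CPM in tdT-high and 1238 CPM in tdT-negative cells. Myh11, the smooth muscle myosin heavy chain, stood at 693.5 and 702 CPM in that order, with an interval of the ratio of 0.961 to 1.02. The exceptions were Fhod3, a formin of sarcomeres, at 24.1 CPM in tdT-high and 10.5 CPM in tdT-negative cells, and Lmod1, an actin nucleator of smooth muscle, at 24.2 and 12.8 CPM. Fhod3 stood at 21.7% of its whole-library level in tdT-high and 42.6% in tdT-negative, and the part of free RNA in its ratio was not tested.

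**Figure D2:**
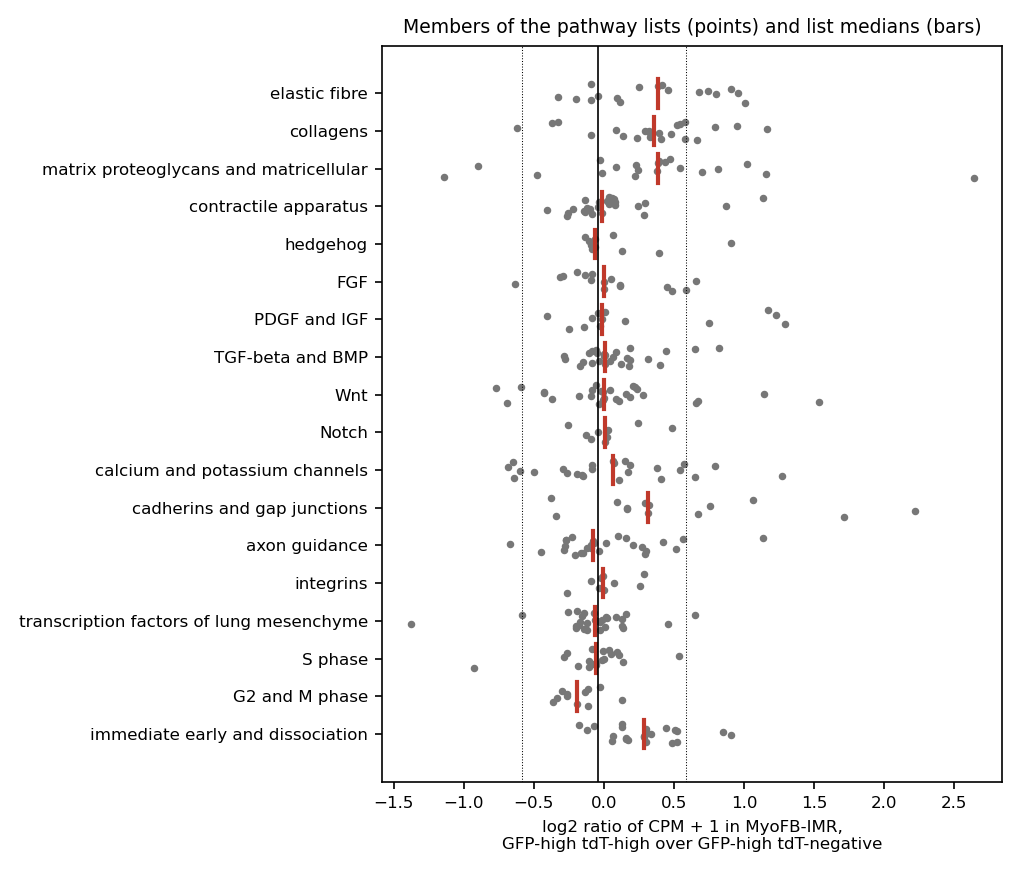
Log2 ratio of CPM plus 1 in MyoFB-IMR, GFP-high tdT-high over GFP-high tdT-negative, for each measured member (points) of 18 gene lists, with the list median as a red bar, the median of all genes at -0.04 as a solid line and 1.5-fold as dotted lines. The bars of the elastic fibre, collagen and proteoglycan lists lie at 0.36 to 0.39, and that of the contractile list lies at -0.02.

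Of the signalling lists, that of PDGF and IGF had the largest share of members past 1.5-fold. In the hedgehog list 1 of 10 measured members was higher: Hhip, a membrane protein that binds hedgehog ligands and is itself induced by them, at 161 CPM (154 to 169) in tdT-high and 85.3 CPM (81.3 to 89.4) in tdT-negative cells. The other induced targets differed little. Gli1, a transcription factor, stood at 34.4 CPM in tdT-high and 26 CPM in tdT-negative cells, and Ptch1, the receptor, at 340.3 and 355.5 CPM.

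Of 28 measured Wnt genes 4 were higher and 3 lower. The higher ones included the ligands Wnt5a, at 475 CPM in tdT-high and 300.5 CPM in tdT-negative cells, Wnt11, at 119.6 and 74.6 CPM, and Wnt9a, at 19.1 and 5.94 CPM. Lgr6, a receptor for R-spondins, which strengthen Wnt signals (chromosome 1, 134983301 to 135105276), stood at 129.9 CPM (123.2 to 137) in tdT-high and 58.1 CPM (54.9 to 61.5) in tdT-negative cells. That is 2.23-fold, and after thinning 36.2% of tdT-high cells (31.8 to 40.7) and 19.3% of tdT-negative cells (16.9 to 21.8) held an Lgr6 UMI, with 0.915% in AdvFB cells of the tdT-negative library. AdvFB cells of the GFP-low library held one in 20.95% (14.7 to 28.4). Lgr6 stood at 68.99 CPM in these cells and at 1.70 CPM in AdvFB cells of the tdT-negative library. Lgr6 was thus also seen under the AdvFB name, and which cells of that name held it was not tested. Unthinned, the shares were 58.7% and 36.0% in tdT-high and tdT-negative cells. Lower members were Notum, a secreted enzyme that inactivates Wnt ligands, at 23.5 CPM in tdT-high and 40.8 CPM in tdT-negative cells, Wnt5b at 9.68 and 16.2 CPM, and Sfrp2 at 4.48 and 7.26 CPM. Axin2, a common target of Wnt and beta-catenin, was near even at 51.1 CPM in tdT-high and 54.4 CPM in tdT-negative cells.

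In the PDGF and IGF list 4 of 13 measured members were higher and 0 lower. Igf1, the insulin-like growth factor, stood at 727 CPM in tdT-high and 432 CPM in tdT-negative cells, 1.68-fold (1.63 to 1.73). Igfbp5, which binds IGFs in the matrix (chromosome 1, 72857932 to 72874884), stood at 203 CPM (194 to 211) in tdT-high and 85.7 CPM (81.7 to 89.8) in tdT-negative cells, 2.37-fold (2.22 to 2.52). Pappa2, a protease that cleaves IGF-binding proteins including IGFBP5, stood at 29.0 and 12.4 CPM in that order, which is 21.4% and 21.85% of its whole-library level. The receptor gene Igf1r was near even at 382 CPM in tdT-high and 345 CPM in tdT-negative cells. Pdgfd, a PDGF ligand, was at 6.76 CPM in tdT-high and 2.16 CPM in tdT-negative cells, which is 11.2% and 6.71% of its whole-library level.

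Of 16 measured FGF genes 2 were higher and 1 lower. Fgf2, a ligand, stood at 16.99 CPM in tdT-high and 11.0 CPM in tdT-negative cells, and Spry2, a feedback inhibitor, at 28.3 and 17.6 CPM. Fgfr4, a receptor, was lower at 20.2 CPM in tdT-high and 31.8 CPM in tdT-negative cells, and the feedback genes Spry4 and Dusp6 were near even, at 40.3 and 43.1 CPM and at 32.2 and 31.0 CPM in the same order. In the TGF-beta and BMP list 2 of 27 measured members were higher and 0 lower. They included Nog, a BMP antagonist, at 12.5 CPM in tdT-high and 7.60 CPM in tdT-negative cells. None of the 9 measured Notch genes reached 1.5-fold.

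Genes of cell contact included several that stood higher. In the list of cadherins and gap junctions 5 of 13 measured members were higher and 0 lower, with a median log2 ratio of 0.32. Cdh4, R-cadherin (chromosome 2, 179442431 to 179899373), stood at 52.2 CPM (48.1 to 56.7) in tdT-high and 15.2 CPM (13.6 to 17) in tdT-negative cells, 3.44-fold. Fat3, an atypical cadherin, stood at 25.9 and 4.76 CPM in that order, which is 23.1% of its whole-library level in tdT-high and 15.8% in tdT-negative. Gja1, connexin 43, stood at 6.12 CPM in tdT-high and 2.40 CPM in tdT-negative cells, which is 7.08% and 16.5% of its whole-library level. Cdh11, the main cadherin of lung fibroblasts, was not among them, at 617 CPM in tdT-high and 783 CPM in tdT-negative cells.

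Kctd16, an auxiliary subunit of GABA-B receptors (chromosome 18, 40256962 to 40531630), stood at 91.3 CPM (85.8 to 97.2) in tdT-high and 22.1 CPM (20.1 to 24.2) in tdT-negative cells, 4.14-fold (3.70 to 4.63). Its UMIs came from a minority of cells. At least 5 Kctd16 UMIs were held by 11.8% of tdT-high cells and 3.004% of tdT-negative cells, and for Cdh4 these shares were 8.57% and 1.65%. Both genes also stood low against their own libraries: Kctd16 at 13.96% of the whole-library level in tdT-high and 11.5% in tdT-negative, and Cdh4 at 21.2% and 20.1%. Eln, by contrast, stood at 53.7% in tdT-high and 58.1% in tdT-negative. The part of free RNA in the ratios of Kctd16, Cdh4, Fat3, Gja1, Pdgfd and Pappa2 was not tested.

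Of 25 measured calcium and potassium channel genes 3 were higher and 4 lower. Cacna2d3, an auxiliary subunit of voltage-gated calcium channels (chromosome 14, 28904943 to 29721864), stood at 62.2 CPM in tdT-high and 25.2 CPM in tdT-negative cells, 2.47-fold (2.20 to 2.78). Kcnma1, the large-conductance potassium channel, stood at 66.1 and 37.7 CPM, and Cacna1g at 26.7 and 16.6 CPM, in that order. On the lower side were Piezo2, a mechanically gated channel, at 248 CPM in tdT-high and 377 CPM in tdT-negative cells, Kcnk2, a potassium channel that also responds to stretch, at 80.01 and 126 CPM, and Cacna1d at 58.4 and 91.9 CPM. The fourth lower member was Kcnq5, at 3.65 CPM in tdT-high and 6.48 CPM in tdT-negative cells.

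Genes lower in labelled cells included several secreted or surface proteins. Hs6st3, which adds sulfate to heparan sulfate (chromosome 14, 119138341 to 119869815), stood at 113 CPM (106 to 119) in tdT-high and 224 CPM (218 to 231) in tdT-negative cells. This is 0.502 of the level (0.471 to 0.535). Tafa1, a secreted chemokine-like protein, stood at 378 CPM in tdT-high and 660.4 CPM in tdT-negative cells, and after thinning 46.5% of tdT-high (41.9 to 51.1) and 64.4% of tdT-negative cells (61.4 to 67.4) held a UMI, against 2.13% of AdvFB cells (unthinned 66.2% and 78.2% in tdT-high and tdT-negative cells). The Tafa1 difference depended on which cells were kept: the log2 ratio of -0.80 became -0.05 among the 92 tdT-high and 183 tdT-negative cells with Xist and no Y-linked UMI, and -1.02 among the 303 and 655 cells with Y-linked UMIs and no Xist.

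Stc1, stanniocalcin-1, a secreted hormone (chromosome 14, 69029238 to 69041804), stood at 112 CPM in tdT-high and 189.9 CPM in tdT-negative cells. Epha3, an ephrin receptor, stood at 138 and 220.0 CPM in that order, and Gpc6, a glypican that carries heparan sulfate, at 92.4 and 143.5 CPM. Slc9a9, a sodium-proton exchanger of endosomes, stood at 47.1 CPM in tdT-high and 86.5 CPM in tdT-negative cells. Among the rest were Hgf, hepatocyte growth factor, at 32.2 and 50.8 CPM, and Lamc3, a laminin chain, at 31.8 and 50.7 CPM. Palmd, Blvra, Aff2, Rapgef4 and Fam162b completed the 15 lowest, with log2 ratios of -0.79 to -0.63. Among the 15 highest were also Prss35, a secreted protease-like protein, at 120.2 CPM in tdT-high and 60.3 CPM in tdT-negative cells, Adgrg2, an adhesion receptor, at 91.7 and 46.9 CPM, and Net1, an activator of RhoA, at 204 and 111 CPM. Cmss1 and Mir6236 also fell among the 15 highest, at 1.94-fold and 1.90-fold. Both stood higher in the GFP-low than in the GFP-high tdT-negative library in AdvFB cells too, Cmss1 at 8450.3 and 4281 CPM, as did Rn18s-rs5, so they move with the structural RNA, which was seen after the values were known.

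Lists of regulators and of the cell cycle were near even. Of 29 measured transcription factors of lung mesenchyme 1 was higher, Klf4, at 23.2 CPM in tdT-high and 14.4 CPM in tdT-negative cells, and 1 lower, Ebf1, at 1.64 and 5.89 CPM. Over the whole libraries Ebf1 stood at 5.85 CPM in tdT-high and 154.6 CPM in tdT-negative. Its MyoFB-IMR level was 3.81% of the whole-library level in tdT-negative, and the part of free RNA in its ratio was not tested. Runx2, a regulator of bone and fibroblast genes, stood at 29.96 CPM in tdT-high and 45.4 CPM in tdT-negative cells, a ratio of 0.659 (0.580 to 0.749), with a log2 ratio of CPM plus 1 at -0.58, the border of 1.5-fold. None of the 9 integrins or the 11 G2 and M phase genes reached 1.5-fold, and the G2 and M phase median was -0.19. Of 19 S phase genes 1 was lower, Mcm3, at 2.28 and 5.25 CPM. Mki67, a marker of cycling cells, stood at 21.0 CPM in tdT-high and 22.9 CPM in tdT-negative cells, and the interval of its ratio, 0.781 to 1.08, included 1. Of 27 axon guidance genes Ntn1, netrin-1, was higher at 46.2 CPM in tdT-high and 20.5 CPM in tdT-negative cells, and Epha3 was lower. Immediate early genes, which tissue dissociation can induce, had a median of 0.29, with 2 of 23 higher: Atf3 at 22.1 and 11.3 CPM and Nr4a3 at 19.7 and 10.5 CPM. Fos stood at 372 CPM in tdT-high and 266 CPM in tdT-negative cells, and the part of this shift in the other results was not tested.

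MyoFB-IMR was the MyoFB type in which the gates differed least. The same rule gave 50 genes at least 2-fold higher (1.27%) and 17 lower (0.431%) of 3944 in MyoFB-Int, with 801 tdT-high and 1324 tdT-negative cells. In MyoFB-Ter, with 190 tdT-high and 303 tdT-negative cells, it gave 145 higher (3.59%) and 107 lower (2.65%) of 4044. The types differ in cell number and come from the same libraries, so they are no independent check of each other, and the difference between types was not tested.

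**Figure D3:**
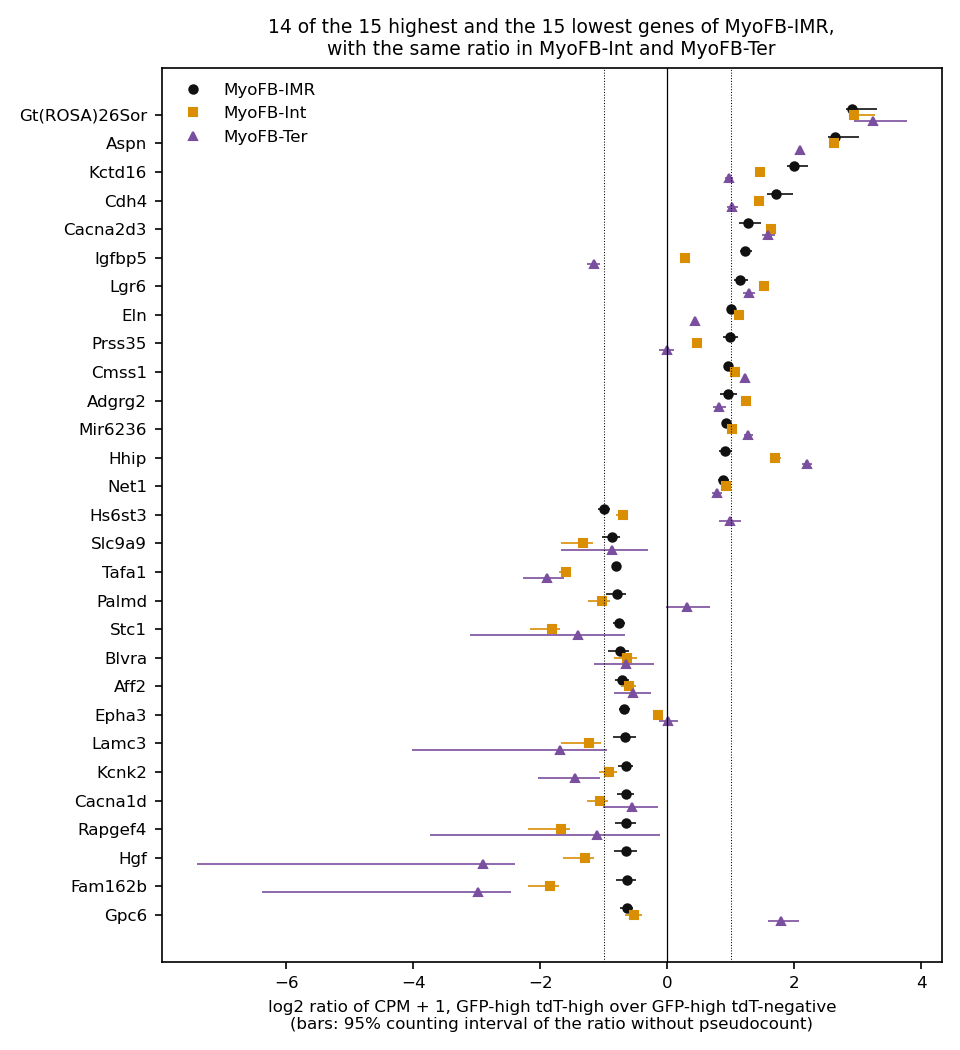
Log2 ratio of CPM plus 1, GFP-high tdT-high over GFP-high tdT-negative, for 14 of the 15 highest and the 15 lowest genes of MyoFB-IMR (black circles) and the same genes in MyoFB-Int (orange squares) and MyoFB-Ter (purple triangles), with bars for the 95% counting interval of the ratio without pseudocount. Igfbp5, Hs6st3 and Gpc6 lie at least 1.5-fold on opposite sides of 0 in MyoFB-IMR and MyoFB-Ter.

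Aspn, Kctd16 and Cdh4 were lower in MyoFB-IMR than in MyoFB-Int and MyoFB-Ter. Aspn stood at 1673 CPM in tdT-high and 269 CPM in tdT-negative MyoFB-Int cells, and at 7272 and 1708 CPM in MyoFB-Ter cells. Kctd16 stood at 891 CPM in tdT-high and 322 CPM in tdT-negative MyoFB-Int cells, and at 1347 and 683.5 CPM in MyoFB-Ter cells. Cdh4 stood at 302.6 CPM in tdT-high and 110.2 CPM in tdT-negative MyoFB-Int cells, and at 597.6 and 292.5 CPM in MyoFB-Ter cells. Eln was higher in tdT-high cells in each type, at 15714 and 7132 CPM in MyoFB-Int and at 14246 and 10556 CPM in MyoFB-Ter. Tafa1 and Stc1 ran the other way in level, highest in MyoFB-IMR and lower in tdT-high cells in each type. Tafa1 stood at 64.6 CPM in tdT-high and 196.7 CPM in tdT-negative MyoFB-Int cells, and Stc1 at 9.81 and 37.1 CPM.

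Igfbp5 did not keep its direction. It stood at 603 CPM in tdT-high and 496 CPM in tdT-negative MyoFB-Int cells, and at 251.4 CPM in tdT-high and 563 CPM in tdT-negative MyoFB-Ter cells. Hs6st3 stood at 68.9 and 113 CPM in MyoFB-Int, tdT-high first, and at 180.2 CPM in tdT-high and 90.6 CPM in tdT-negative MyoFB-Ter cells. The Pdgfra gap between the gates was narrower in MyoFB-IMR than in the other types, where Pdgfra stood at 252 CPM in tdT-high and 390.4 CPM in tdT-negative MyoFB-Int cells and at 24.6 and 209 CPM in MyoFB-Ter cells.

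**Figure D4:**
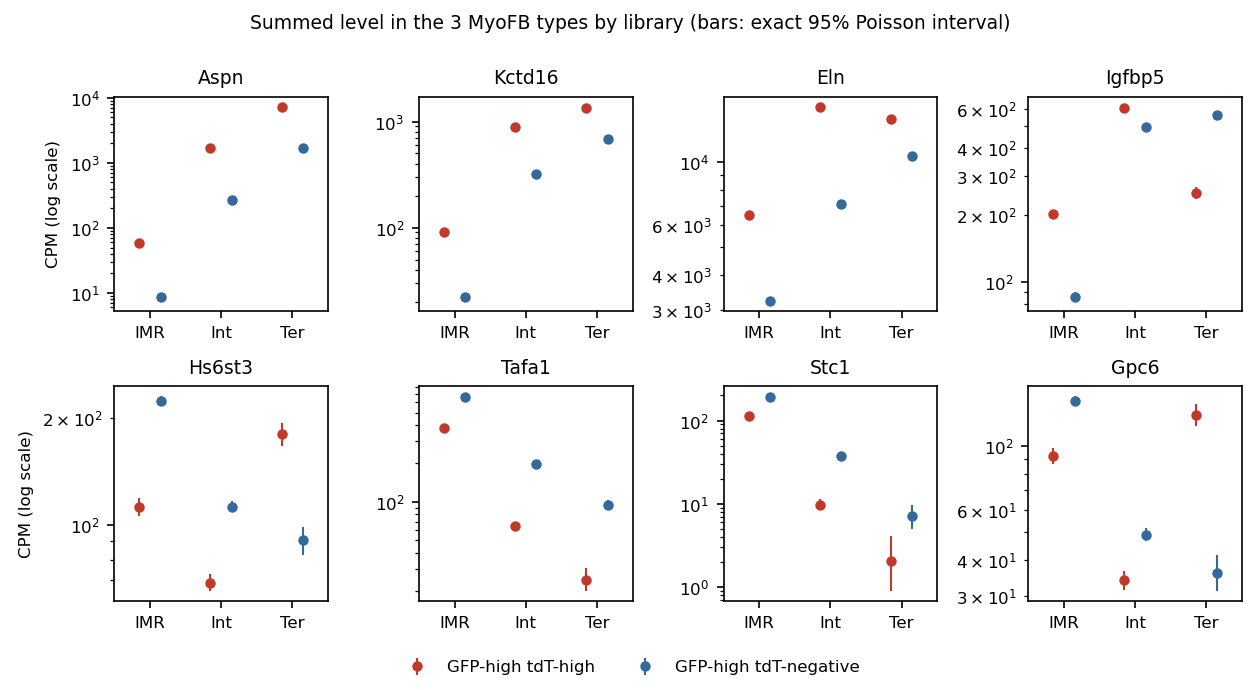
Summed level in CPM (log scale) of 8 genes in MyoFB-IMR, MyoFB-Int and MyoFB-Ter cells, with the GFP-high tdT-high library in red on the left and the GFP-high tdT-negative library in blue on the right of each pair, and exact 95% Poisson intervals. Aspn, Kctd16 and Eln are higher in tdT-high cells in each type, Tafa1 and Stc1 lower, and Igfbp5, Hs6st3 and Gpc6 change sides in MyoFB-Ter.

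Splitting each library by whether a cell still held Fgf18 transcript left the difference between gates in place. In the tdT-high library 94 cells held an Fgf18 UMI after thinning and 373 did not, and in the tdT-negative library 152 did and 880 did not. Eln stood at 6847 CPM in tdT-high cells with Fgf18 and 6415 CPM in those without, against 3547 CPM in tdT-negative cells with Fgf18 and 3188 CPM in those without. Lgr6 stood at 156 CPM with and 122.8 CPM without Fgf18 in tdT-high, and at 71.2 CPM with and 56.0 CPM without it in tdT-negative cells. Hs6st3 was lower in the cells with Fgf18 in each library, at 85.2 CPM with and 120.0 CPM without it in tdT-high and at 149 CPM with and 237 CPM without it in tdT-negative cells. Kctd16 differed by Fgf18 in tdT-high cells, at 149.7 CPM with and 75.6 CPM without, and hardly in tdT-negative cells, at 19.6 and 22.5 CPM. Cells were grouped here by a transcript, which a shallow count misses in many cells that make it, so the split is a description.

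**Figure D5:**
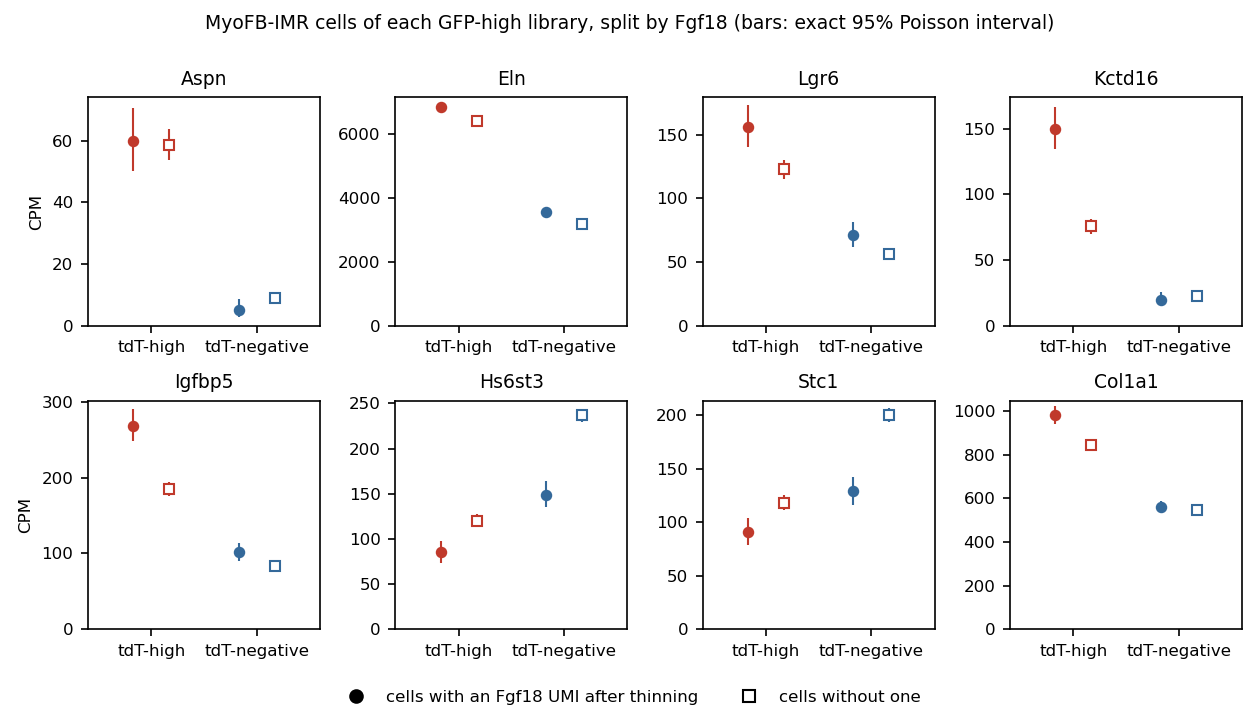
Level in CPM of 8 genes in MyoFB-IMR cells with an Fgf18 UMI after thinning (filled circles) and without one (open squares), GFP-high tdT-high in red on the left and GFP-high tdT-negative in blue on the right, with exact 95% Poisson intervals. For Eln, Lgr6 and Col1a1 both red points lie above both blue points, and for Hs6st3 and Stc1 both red points lie below both blue ones.

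A split by the tdTomato transcript was made as well. Eln stood at 7242 CPM in the 79 tdT-high cells with a TDT UMI after thinning and at 6353 CPM in the 388 without one. It stood at 4304 CPM (4089 to 4527) in the 18 tdT-negative cells with a TDT UMI and at 3221 CPM in the 1014 without one, so both tdT-high values lie above both tdT-negative ones. Kctd16 did not follow the Fgf18 split: it stood at 71.2 CPM with and 95.5 CPM without TDT in tdT-high cells, and at 74.4 CPM (48.6 to 109) with and 21.2 CPM without it in tdT-negative cells.

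The MyoFB-IMR cells of the gates were not spread alike over the clusters of a Leiden clustering at resolution 1.0, which numbers clusters by size. Cluster 1 held 136 tdT-high and 332 tdT-negative MyoFB-IMR cells and was the most frequent in both. Cluster 5 held 63 tdT-high (13.5%) and 298 tdT-negative cells (28.9%), and cluster 2 held 88 (18.8%) and 61 (5.91%). MyoFB-IMR was the most frequent type in clusters 1, 5 and 15, and MyoFB-Int in clusters 2, 3 and 6. MyoFB-Int is a type in which Eln, Aspn and Kctd16 are higher than in MyoFB-IMR. At resolution 0.5, a cluster of 1119 cells, 821 of them MyoFB-Int, held 21.2% of the tdT-high and 1.45% of the tdT-negative MyoFB-IMR cells. A larger share of labelled than of unlabelled MyoFB-IMR cells thus lay in clusters led by MyoFB-Int. Within each of the 6 clusters with cells of both gates (1, 2, 3, 5, 6 and 15), Eln was higher in tdT-high cells, from 3815 against 2508 CPM in cluster 5 to 10286 against 5494 CPM in cluster 3. Aspn was higher in tdT-high cells of all 6 as well, at 108 against 16.4 CPM in cluster 1 and 16.8 against 4.44 CPM in cluster 5. Kctd16 in cluster 5 was even, at 9.71 CPM in tdT-high and 9.54 CPM in tdT-negative cells. Igfbp5 was higher in 4 of the 6 clusters and Stc1 lower in 5 of the 6, while Hs6st3 and Tafa1 were lower in tdT-high cells of all 6. Of the contractile genes, Acta2 and Tagln were also lower in tdT-high cells of all 6. Their log2 ratios ran from -1.48 to -0.28 for Acta2 and from -0.69 to -0.15 for Tagln. Myh11 was higher in 4 clusters and lower in 2.

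Markers of most other cell types were low in both libraries, with higher sums for smooth muscle and pericyte markers. The 14 adventitial fibroblast markers summed to 154 CPM in tdT-high and 166 CPM in tdT-negative MyoFB-IMR cells, against 17911 CPM in AdvFB cells of the tdT-negative library, with 2 of 9 measured members higher, 3 lower and Ly6a at 0 in tdT-high cells. Over all 11936 genes of at least 5 CPM, 3.03% were higher and 1.37% lower. The lower members, Dcn, Abca8a and Gpc3, stood at 1.035%, 6.49% and 5.45% of their whole-library level in tdT-negative. The part of free RNA in their ratios was not tested. The tdT-high library held 4 AdvFB cells and the tdT-negative library 328. The 13 alveolar fibroblast markers summed to 164 and 122 CPM in the same order, against 13665 CPM in the 44 MatFB-Type 2 cells of the tdT-negative library, and 1 of 5 measured members, Mfap4, was higher. The 9 smooth muscle markers summed to 1289 and 1215 CPM, with 1 of 7 higher, against 86.5 CPM in AdvFB cells of the tdT-negative library. Epithelial markers summed to 3.01 and 10.9 CPM, with Epcam, Nkx2-1, Cdh1, Krt8 and Krt18 at 0 in at least 1 library, and Scgb1a1, a club cell secretory protein, at 0.365 CPM in tdT-high and 9.37 CPM in tdT-negative cells. Mesothelial markers summed to 1.37 and 1.57 CPM, endothelial ones to 99.2 and 128 CPM with Cdh5, Kdr and Cldn5 at 0 in at least 1 library, immune ones to 17.1 and 22.03 CPM, and erythroid ones to 12.2 and 10.6 CPM. The 10 pericyte markers summed to 400.1 CPM in tdT-high and 425 CPM in tdT-negative cells, with 2 higher and 1 lower, against 2259 CPM in AdvFB cells of the tdT-negative library. The higher members, Rgs5 and Postn, stood at 8.445% and 25.1% of their whole-library level in tdT-high, and at 7.085% and 8.12% in tdT-negative.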

How the data were processed

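Libraries were made with 10x Genomics 3′ chemistry, per the labels' protocols, and the submitters' processing notes name Cell Ranger 7.0.0 and the mm10 build. The authors deposited a matrix of whole UMI counts for 31730 genes, and their deposited cell table gives each cell's gate, type, total count and percent of UMIs that are mitochondrial. The labels do not state how types were called or cells filtered, and doublets were not removed. Of the symbols, 30176 matched GENCODE M21, from which coordinates were taken.

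UMIs were summed over the MyoFB-IMR cells of each library and divided by the total to give CPM. Ratios have exact conditional binomial, sums exact Poisson and shares exact Clopper-Pearson intervals at 95%, and PCR or capture error is not covered. A count of 0 allows 3 counts, 0.274 CPM in tdT-high and 0.147 CPM in tdT-negative cells. Cdk8, 7SK.197 and genes that draw structural RNA reads, 456 in all, were set aside. The text names the 15 genes with the highest and the 15 with the lowest log2 ratio (pseudocount 1 CPM) that, in the library where they were higher, reached 50 CPM and 10% of the cells, the gate genes, and from each of 18 pathway and 10 marker lists the members with the largest ratios and highest levels, with further list members that passed 1.5-fold. Some genes that this rule names are not reported here. The members, lists and rule were chosen with earlier results of these data known. Cells were clustered on 2000 variable genes and 30 components. The functions were tested on simulated data. Tools were scipy 1.17.1 and leidenalg 0.10.2 under Python 3.11.15, and edgeR 4.0.16 and DESeq2 1.42.0 only to rescale the summed counts.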

Additional observations from a re-analysis of the deposited data

Results flagged for a closer look

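Igfbp5 had a log2 ratio, tdT-high over tdT-negative, of -1.16 in MyoFB-Ter and 1.23 in MyoFB-IMR, so the gates stood in opposite order in these types. Hs6st3 had 0.98 in MyoFB-Ter and -0.99 in MyoFB-IMR. Gpc6 had 1.80 in MyoFB-Ter and -0.63 in MyoFB-IMR. Each value rests on 1 library a side, the difference between types was not tested, and both types come from the same libraries.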

How the results depend on the processing

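The 11 genes at least 2-fold higher and 0 lower in tdT-high MyoFB-IMR cells became 18 higher when totals left out mitochondrial, ribosomal, haemoglobin and structural RNA genes, 17 with cells thinned to 5000 UMIs, 30 higher and 4 lower with a minimum of 10 CPM, and 93 higher and 26 lower with no filter on low values. Cells without Mki67 or Top2a UMIs (299 tdT-high and 683 tdT-negative) gave 20 higher and 1 lower, cells with Xist and no Y-linked UMI 16 higher and 3 lower, cells with Y-linked UMIs and no Xist 9 higher and 2 lower, the shared Leiden cluster 13 higher and 2 lower, and cells with 10000 to 40000 UMIs and under 10% mitochondrial UMIs 11 higher and 1 lower. Fewer cells or UMIs per sum leave more counting error, and the cause of these shifts was not tested otherwise. TMM and DESeq2 scaling and a pseudocount of 5 gave 11 and 0. Of 360 alternative values of the 30 highest and lowest genes none changed sign and 94 moved by more than their counting interval. The median of the elastic fibre list was 0.26 after thinning, and that of the immediate early list was 0.09 in the shared cluster. Tagln, Myh11, Tgfbi, Mki67 and CreERT2 crossed 0 in some settings. In an alternative chosen after seeing the data, tdT-negative cells weighted to the clusters of tdT-high cells gave 8 higher and 0 lower, with Eln at 0.95. No paired analysis was possible because each gate has 1 library. Leaving out a library was not possible for the same reason.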

Other observations

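Rgs5, a regulator of G-protein signals used as a pericyte marker, stood at 11.2 CPM in tdT-high and 1.13 CPM in tdT-negative MyoFB-IMR cells, 9.96-fold (95% interval 6.34 to 16.3). Its MyoFB-IMR level was 8.45% of the whole-library level in tdT-high, next to Aspn at the low end of that library, and the pericyte markers Cspg4, at 17.6 and 11.9 CPM, and Higd1b, at 3.65 and 6.04 CPM, did not share its ratio. The unnamed transcripts Gm20631 and Gm19951 stood at 171 and 472 CPM in tdT-high cells, against 67.1 and 225 CPM in tdT-negative cells. Cdk8, which was set aside, stood at 4308 CPM in tdT-high and 1256 CPM in tdT-negative MyoFB-IMR cells, and at 3911 and 1025 CPM in AdvFB cells of the GFP-low and GFP-high tdT-negative libraries.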
